A study of Drosophila melanogaster with 6 samples.

Results

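The genes described here encode proteins of the mitochondrial ribosome. They were chosen by name: each probe set that a platform annotation assigns to a single gene whose symbol starts with mRpL (large subunit) or mRpS (small subunit) was taken, and a gene with several such probe sets was read from the brightest. This gave 71 probe sets for 69 genes, 44 of the large and 25 of the small subunit, among 11982 genes read in all. Subunits go by symbol throughout, so *mRpS18A* and *mRpS30*, which belong to the large subunit in mammals, are counted as small. A RefSeq gene table of assembly Release 6 lists 73 genes with such symbols, and all 69 were found in it. The other 4, *mRpL34*, *mRpL37*, *mRpL53* and *mRpS10*, were not analysed here. Of the 69 genes, 12 lie on chromosome arm 2L, 10 on 2R, 17 on 3L, 19 on 3R and 11 on X.

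Mitochondria carry ribosomes of their own, which translate the few messages encoded by mitochondrial DNA, all for subunits of the oxidative phosphorylation complexes. The ribosomal RNAs come from the mitochondrial genome, while the proteins are encoded in the nucleus, made in the cytoplasm and imported. The small subunit reads the message, and the large subunit forms the peptide bonds and holds the tunnel through which the new protein leaves for the inner membrane. In flies, mutants of these genes have been studied for slow growth and small body size.

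RNA came from eye imaginal discs of *Drosophila melanogaster* larvae at the wandering stage, raised at 25 °C, and was read on 6 Affymetrix arrays, 3 per genotype. The wild type was *w1118*. The mutant was *w; mir-998[exc222]*, in which a remnant of a *P* element disrupts the hairpin of *mir-998*, a microRNA gene inside an intron of *dE2f1*. Both genotypes carry a *white* mutation. The allele came from a single excision event. The labels call the arrays of each genotype biological replicates. They do not say how many larvae were pooled or whether replicates came from separate crosses. The p-values thus measure only how these samples spread, and part of that spread may be technical. Mature miR-998 itself was not analysed here, so the labels were not checked against it.

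Each value is a log2 expression value of a probe set, a group of short oligonucleotides that match the same transcript, as the authors normalized it with the rma algorithm. Of 18769 probe sets tested, the median lay between 5.25 and 5.30 on the 6 arrays, and bacterial control probe sets without a target in fly RNA averaged 3.63 to 3.72. The number of arrays limits the precision. In the linear model used below, array weights estimated from the spread were lowest for wild type replicates 3 (0.381) and 1 (0.543). Of 8 listed eye disc genes 7 were read, and their values of 8.76 to 12.48 on the 6 arrays placed them far above the control probe sets.

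All 69 mitochondrial ribosomal protein genes gave a clear signal in the eye disc. Mean log2 values over the 6 arrays ran from 8.87 for *mRpL18* to 10.75 for *mRpL47*, a range of 1.88 log2 units or 3.67-fold, with a median of 9.75. No value on any array was below 8.39. Ranked among all tested probe sets by mean signal, the members lay between the 74.6 and 92.1 percentile. Probe sets differ in how well they bind, so these are positions in the distribution of signal and not amounts of transcript. The median mean signal was 9.78 for the large and 9.68 for the small subunit. The brightest were *mRpL47* (10.75), *mRpL12* (10.73), *mRpL33* (10.71), *mRpS5* (10.71) and *mRpS16* (10.69). The dimmest were *mRpL18* (8.87), *mRpL21* (8.89) and *mRpS23* (8.89). Over all tested probe sets the median mean signal was 5.28, and every member lay above it.

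**Figure D1:**
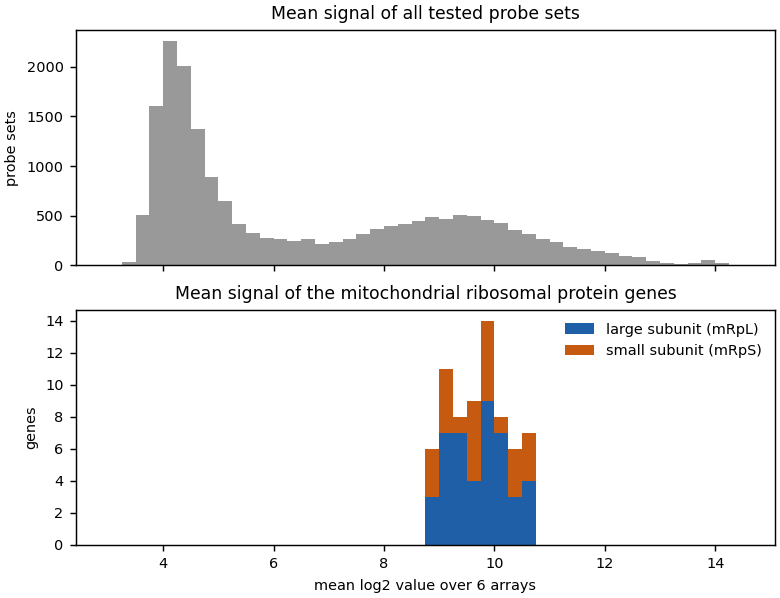
Upper panel, number of probe sets by mean log2 value over 6 arrays (x axis) for all 18769 tested probe sets; lower panel, number of mitochondrial ribosomal protein genes in the same bins, with large and small subunit genes stacked. The 69 genes fill a narrow band from 8.87 to 10.75.

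The genotypes were then compared gene by gene with limma, with the Benjamini-Hochberg adjustment taken over the 18769 probe sets and a threshold of an adjusted p at or under 0.05. None of the 69 genes passed, and the smallest adjusted p was 0.139, for *mRpL18*. Over all probe sets 300 passed, which is 1.6%, and among the 3289 probe sets with a mean signal in the range of the members 71 passed, which is 2.16%. At an unadjusted p under 0.05 in limma, 5 of the 69 genes stood apart, against 11.8% of all probe sets and 15.8% of those in the same signal range. Of these 5, *mRpL23*, *mRpL35* and *mRpS6* were higher in the mutant and *mRpL18* and *mRpS28* were lower. The corresponding shares of all probe sets were 5.91% higher and 5.88% lower. The genes with an unadjusted p under 0.05 were thus no more frequent here than over the arrays as a whole. In bulk tissue, fewer cells of a type and less RNA per cell cannot be told apart.

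The changes were small throughout. The median log2 fold change of the 69 genes, mutant against wild type, was 0.03, with quartiles of -0.04 and 0.11, against a median of -0.003 over all probe sets and 0.027 over those in the same signal range. It was above 0 in 43 genes and below 0 in 26. Positive values made up 62.3% of the members, 48.7% of all probe sets and 57.2% of those of the same signal range. Read at 1 probe set per gene, as the members are, the 11982 genes had a median of 0.003 and 50.1% positive values. The other background shares in this text are over probe sets, and a gene can have several. In 62 of the 69 genes the absolute log2 fold change was under 0.2, and 79.4% of all probe sets were under that bound. The direction of the median rested on single arrays: it was -0.023 without wild type replicate 2 and -0.02 without mutant replicate 1, but 0.087 without wild type replicate 1 and 0.10 without mutant replicate 3.

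The arrays also set limits on how large a change could have been missed. The 95% interval of the log2 fold change lay within 0.5 of 0, which is 1.41-fold, for 58 of the 69 genes (84.1%), against 76.9% of all probe sets and 66.9% of those in the same signal range. For all 69 genes it lay within 1 log2 unit, as it did for 94.0% of all probe sets. The interval reached above 0.5 in 6 genes and below -0.5 in 5. Standard errors ran from 0.07 (*mRpS7*) to 0.26 (*mRpS5*).

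**Figure D2:**
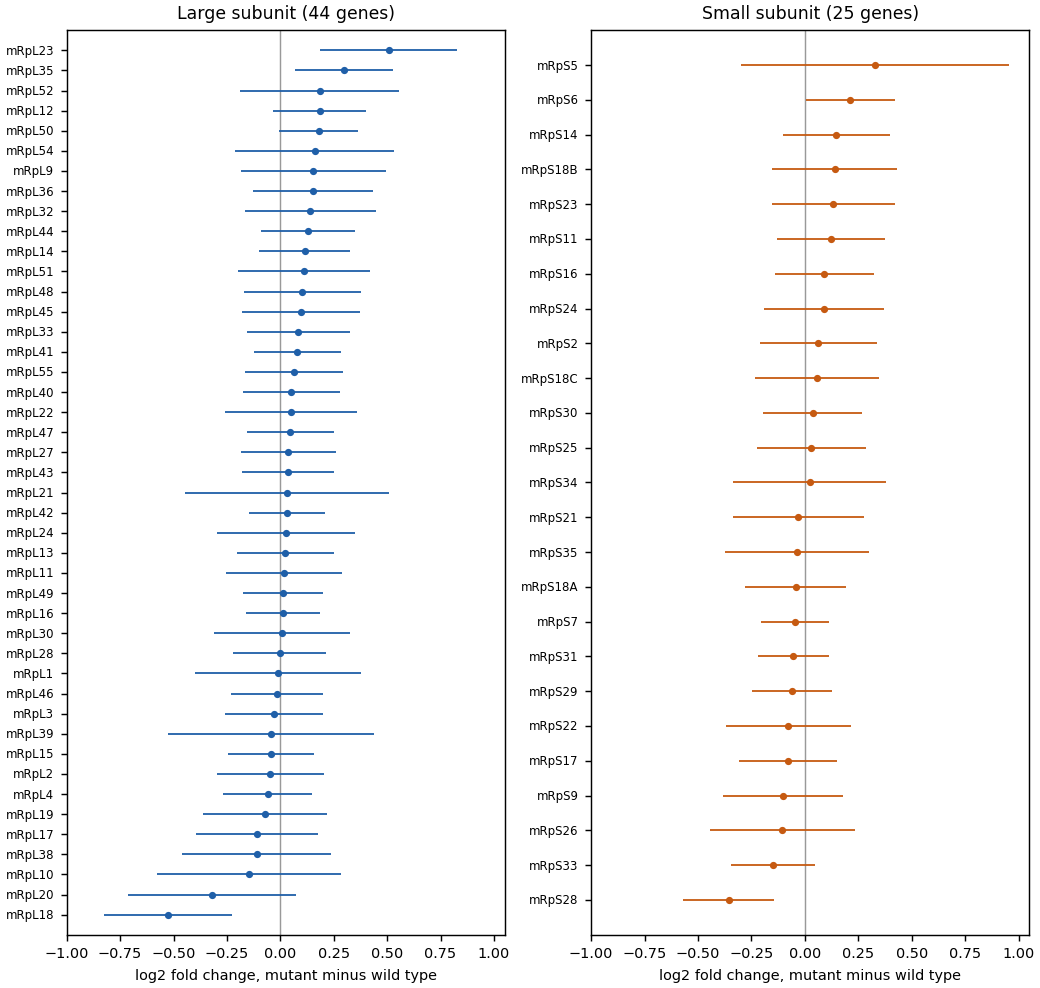
Log2 fold change of each mitochondrial ribosomal protein gene (x axis, mutant minus wild type), with large subunit genes on the left and small subunit genes on the right, each sorted by its change. Points are limma estimates from 3 arrays per genotype and bars are 95% intervals. Of the 69 intervals 64 contain 0.

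For 6 genes the 3 mutant values did not overlap the 3 wild type values. The mutant was higher in 4 of them (*mRpL12*, *mRpL23*, *mRpL35* and *mRpS6*) and lower in 2 (*mRpL18* and *mRpS28*). Over all probe sets 7.97% were higher and 8.07% lower without overlap, and among those of the same signal range 18.8% did not overlap in either direction, so 6 of 69 is a lower share than in either background. With 3 arrays per genotype the smallest two-sided p of an exact permutation test is 0.1.

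The largest difference downward was that of *mRpL18* (CG12373, arm 2R), the counterpart of a bacterial protein that holds 5S ribosomal RNA in the large subunit. It stood at log2 values of 9.30, 9.0 and 9.10 on the wild type arrays (mean 9.13 ± 0.153, SD, n = 3) and 8.77, 8.66 and 8.39 on the mutant arrays (mean 8.61 ± 0.196, SD, n = 3). Every mutant array lay below every wild type array, and mutant replicate 3 was the lowest of all. The log2 fold change was -0.53 (standard error 0.125, 95% interval -0.83 to -0.23), a level of 0.694 of wild type, and limma gave an unadjusted p of 0.00476 (0.139 after adjustment). With 1 array left out it ranged from -0.608 to -0.418.

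*mRpS28* (CG5497, arm 2R), a small subunit protein, stood at 9.68, 9.68 and 9.82 on the wild type arrays (mean 9.73 ± 0.081, SD, n = 3) and at 9.50, 9.37 and 9.24 on the mutant arrays (mean 9.37 ± 0.13, SD, n = 3). The groups did not overlap, with the highest mutant array at 9.50 and the lowest wild type arrays at 9.68. The log2 fold change was -0.36 (standard error 0.088, 95% interval -0.57 to -0.14, unadjusted p = 0.00586, adjusted p = 0.157, limma).

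The largest difference upward was that of *mRpL23* (arm 3L), whose bacterial counterpart sits at the mouth of the exit tunnel. It stood at 10.02, 9.80 and 9.89 on the wild type arrays (mean 9.90 ± 0.111, SD, n = 3) and at 10.63, 10.45 and 10.15 on the mutant arrays (mean 10.41 ± 0.242, SD, n = 3). All mutant arrays were above all wild type arrays, with mutant replicate 3 nearest to them. The log2 fold change was 0.51 (standard error 0.133, 95% interval 0.19 to 0.83), or 1.42-fold, at an adjusted p of 0.18 from limma. *mRpL35* (arm 3R), another large subunit protein with a bacterial counterpart, stood at 9.06, 8.95 and 9.24 on the wild type arrays and 9.48, 9.37 and 9.30 on the mutant arrays. Its groups were separated by a narrow gap, since wild type replicate 3 and mutant replicate 3 lay close together. The log2 fold change was 0.30 (standard error 0.095, 95% interval 0.07 to 0.53, adjusted p = 0.27, limma), or 1.23-fold.

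*mRpS6* (arm 3L), the counterpart of a protein on the platform of the bacterial small subunit, stood at 9.15, 9.01 and 9.21 on the wild type arrays and 9.46, 9.27 and 9.28 on the mutant arrays. Its mutant arrays began just above the highest wild type array, and its log2 fold change was 0.21 (standard error 0.087, adjusted p = 0.41, limma). *mRpL12* (arm 3L) encodes the protein of the ribosomal stalk that engages the translation factors, and flies need it for growth driven by Cyclin D and Cdk4. It stood at 10.70, 10.46 and 10.76 on the wild type arrays (mean 10.64 ± 0.159, SD, n = 3) and at 10.84, 10.83 and 10.80 on the mutant arrays (mean 10.82 ± 0.021, SD, n = 3). The mutant arrays were nearly equal and sat a little above wild type replicates 1 and 3, while wild type replicate 2 was lower. The difference of 0.18 log2 units (standard error 0.091, adjusted p = 0.528, limma) was 0.093 without wild type replicate 2.

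**Figure D3:**
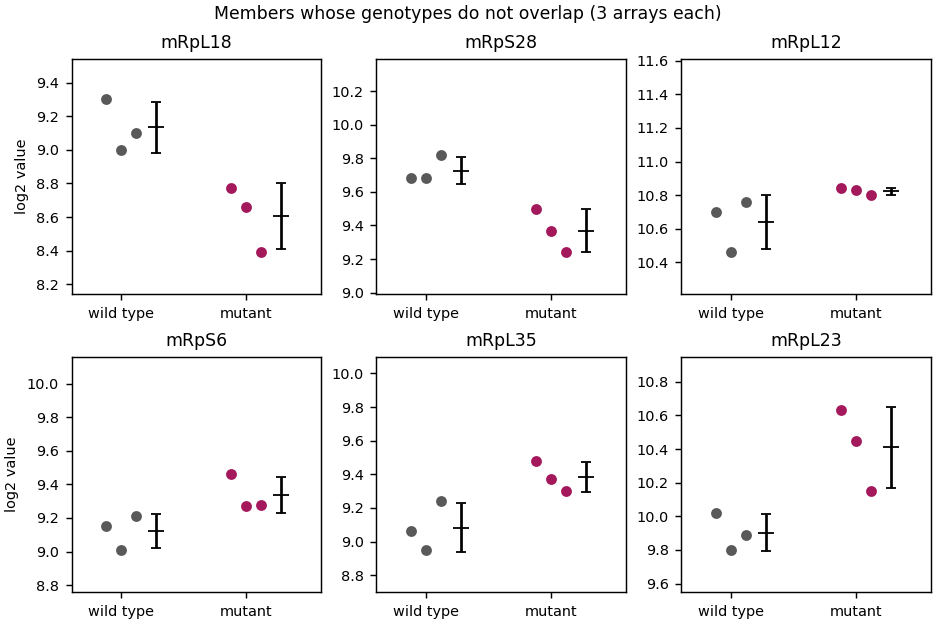
Log2 values (y axis) of the 6 mitochondrial ribosomal protein genes whose genotypes do not overlap. Each point is 1 array, and the bars give the mean and SD of 3 arrays. *mRpL18* and *mRpS28* are lower and *mRpL12*, *mRpS6*, *mRpL35* and *mRpL23* higher in the mutant; none of the 6 passed the threshold over all probe sets.

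Other genes had differences of similar size whose groups overlapped. *mRpS5*, the counterpart of a bacterial protein that affects the accuracy of decoding, had the widest spread. It stood at 11.08, 10.45 and 10.09 on the wild type arrays (mean 10.54 ± 0.501, SD, n = 3) and 10.98, 11.05 and 10.58 on the mutant arrays (mean 10.87 ± 0.254, SD, n = 3). Wild type replicate 1 was the highest of all and replicate 3 the lowest. The log2 fold change was 0.33 (standard error 0.261, 95% interval -0.30 to 0.96, adjusted p = 0.744, limma), and it was 0.105 without wild type replicate 3 and 0.60 without wild type replicate 1. *mRpL20*, the counterpart of a bacterial protein of early large subunit assembly, stood at 10.44, 9.97 and 9.84 on the wild type arrays and 9.85, 9.82 and 9.62 on the mutant arrays. Wild type replicate 1 alone was high, and the difference of -0.32 log2 units (standard error 0.164, adjusted p = 0.546, limma) was -0.142 without it.

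Among the other large subunit proteins of the translation factor site, *mRpL10*, which anchors the stalk protein *mRpL12*, stood at 9.47, 9.04 and 9.09 on the wild type arrays and 9.28, 9.16 and 8.72 on the mutant arrays, a log2 fold change of -0.15 (standard error 0.18, 95% interval -0.58 to 0.29). Its groups overlapped widely. *mRpL11*, whose bacterial counterpart lies at the base of the stalk, was at 0.02 (standard error 0.113), and *mRpL1*, of the stalk near the exit of spent tRNAs, at -0.01 (standard error 0.162). *mRpL3*, whose counterpart reaches towards the site of peptide bond formation, was at -0.03 (standard error 0.096). These estimates of *mRpL1*, *mRpL3*, *mRpL10* and *mRpL11* changed sign with an array left out, as did those of other genes near 0.

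Around the exit tunnel, *mRpL47*, the counterpart of bacterial L29 and the brightest member, stood at 10.65, 10.64 and 10.88 on the wild type arrays and 10.78, 10.72 and 10.81 on the mutant arrays, a log2 fold change of 0.05 (standard error 0.085). *mRpL45*, which in mammals sits beside the tunnel exit and touches the inner membrane, was at 0.10 (standard error 0.115), and *mRpL44*, which has a fold like that of RNase III, at 0.13 (standard error 0.092). The proteins *mRpS18A* and *mRpS30* are named for the small subunit but belong to the large subunit in mammals. *mRpS18A* was at -0.04 (standard error 0.098) and *mRpS30* at 0.04 (standard error 0.096). Bright *mRpL33* (0.08), dim *mRpL21* (0.03) and *mRpL52* (0.18, adjusted p = 0.771, limma) also missed the threshold. By subunit, 30 of the 44 large subunit genes had a positive log2 fold change, with a median of 0.033.

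In the small subunit 13 of the 25 genes had a positive log2 fold change, with a median of 0.023. *mRpS7* had the smallest error of all members, and stood at 10.63, 10.58 and 10.71 on the wild type arrays and 10.63, 10.61 and 10.54 on the mutant arrays. Its groups overlapped, and the log2 fold change of -0.05 had a 95% interval of -0.21 to 0.11. *mRpS2* was at 0.06 (standard error 0.113) and *mRpS24*, the counterpart of bacterial S3 at the entry of the message, at 0.09 (standard error 0.117). *mRpS29*, a GTP-binding protein known in mammals as DAP3 and first studied there for a part in cell death, stood at 9.38, 9.19 and 9.34 on the wild type arrays and 9.31, 9.17 and 9.25 on the mutant arrays. Those arrays overlapped throughout, and the log2 fold change was -0.06 (standard error 0.078, 95% interval -0.25 to 0.13). *mRpS33*, a protein without a bacterial counterpart, was at -0.15 (standard error 0.082, adjusted p = 0.586, limma), *mRpS16* at 0.09 and *mRpS23* at 0.13.

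Proteins of the mitochondrial small subunit also occur under other fly symbols. *tko*, the S12 counterpart at the decoding centre and a classical mutant with seizures after mechanical shock, stood at 10.79, 10.54 and 10.96 on the wild type arrays and 10.95, 10.88 and 10.74 on the mutant arrays. *bonsai*, the S15 counterpart, named for the small size of its mutants, stood at 10.26, 9.93 and 10.23 on the wild type arrays and 10.21, 10.20 and 10.05 on the mutant arrays. Both overlapped between genotypes, and differed by 0.09 (standard error 0.121) and by 0.01 log2 units (standard error 0.107), respectively. For the 2 members with a second probe set, the dimmer probe set gave the same sign as the brighter. These were 0.18 (standard error 0.182) against 0.12 (standard error 0.105) for *mRpS11*, and 0.06 (standard error 0.131) against 0.05 (standard error 0.085) for *mRpL47*.

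Arrays of the same genotype differed from each other in the level of the members as a whole. The median log2 value of the 69 genes was 9.78, 9.61 and 9.82 on wild type replicates 1, 2 and 3, and 9.85, 9.77 and 9.62 on mutant replicates 1, 2 and 3. Wild type replicate 2 and mutant replicate 3 were thus the low arrays. Between mutant replicates 1 and 3, the median deviations from the genotype mean differed by 0.23 log2 units, or 1.17-fold, and between wild type replicates 1 and 2 also by 0.23, against a median change between genotypes of 0.03.

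Most members shared this variation. Among the 3 mutant arrays, 61 of the 69 genes (88.4%) had their lowest value on replicate 3, against 31.8% of all probe sets and 42.1% of those in the same signal range. On mutant replicate 1, 58 genes (84.1%) had their highest value, against 34.0% of probe sets in that signal range. In wild type 50 genes (72.5%) were lowest on replicate 2, against 30.9% and 23.4%, and none was highest there. The other wild type arrays shared the top, with 42 genes highest on replicate 1 and 24 on replicate 3. Mutant replicate 1 was above mutant replicate 3 in 65 of the 69 genes and in 44.6% of all probe sets. Wild type replicate 1 was above wild type replicate 2 in 65 genes and in 51.5% of all probe sets. The 69 genes of an array share its RNA sample, labeling and hybridization, so they are not independent, and no test was made over them.

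The pattern was alike in both subunits. Mutant replicate 3 was the lowest mutant array for 39 of 44 large and 22 of 25 small subunit genes, and wild type replicate 2 the lowest wild type array for 31 of 44 and 19 of 25. A few genes departed from it. *mRpL45* stood at 9.20, 9.46 and 9.62 on the wild type arrays and 9.46, 9.52 and 9.59 on the mutant arrays, so that the replicates 1 were its lowest and the replicates 3 its highest. *mRpL44*, at 9.79, 9.81 and 10.08 on the wild type arrays and 10.04, 10.00 and 10.03 on the mutant arrays, also lacked the dip on mutant replicate 3. So did the brighter probe set of *mRpL47*. The dimmer probe set of *mRpL47* had the dip, at 9.86, 9.75 and 9.51 on the mutant arrays. *mRpL39*, a large subunit protein named here after its values were seen, stood at 9.81, 9.40 and 8.98 on the wild type arrays, an SD of 0.415 (n = 3), and at 9.45, 9.36 and 9.25 on the mutant arrays. In 47 of the 69 genes the SD was larger in wild type, with a median SD of 0.161 in wild type and 0.116 in the mutant. Over all probe sets these medians were 0.127 and 0.084, so the wider wild type spread was general.

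**Figure D4:**
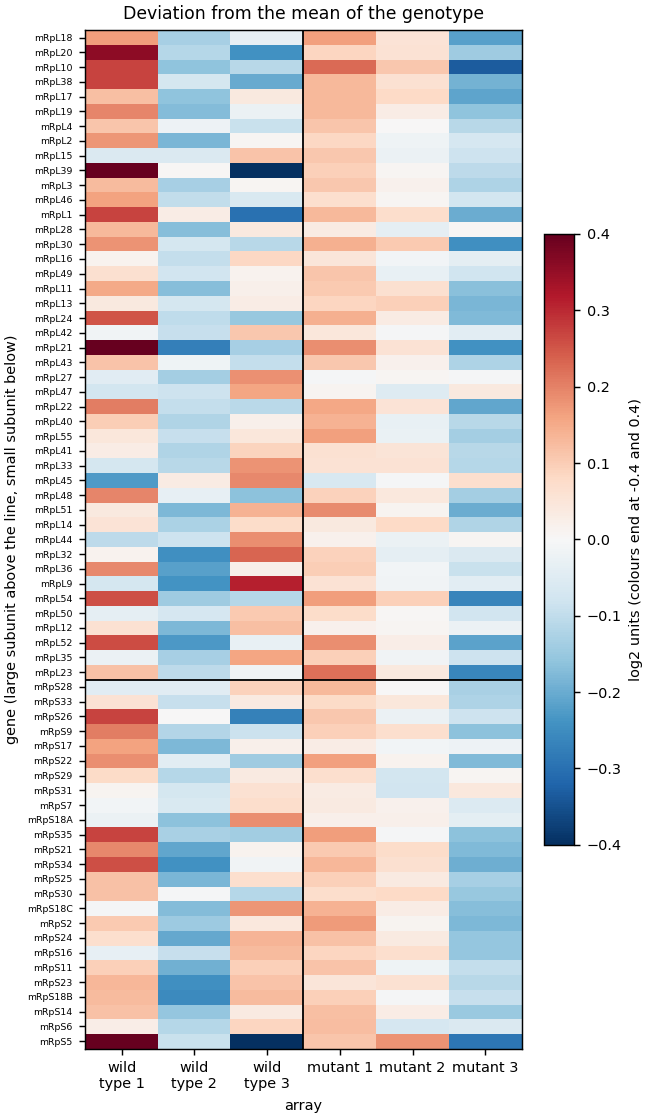
Deviation of each log2 value from the mean of its genotype (colour, log2 units) for the 69 genes (rows, large subunit above the line) on the 6 arrays (columns). Wild type replicate 2 and mutant replicate 3 are below the mean (blue) in most rows and mutant replicate 1 is above it (red).

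Lists of genes with related functions were read in the same way. Mitochondrial translation factors, aminoacyl-tRNA synthetases and factors of mitochondrial transcription were represented by 29 genes, of which 16 had a positive and 13 a negative log2 fold change, with a median of 0.02, and none passed the threshold. At an unadjusted p under 0.05 in limma there were 2 of 29, both higher in the mutant, against 11.8% of all probe sets. *IleRS-m*, which charges mitochondrial tRNA with isoleucine, stood at 7.51, 7.49 and 7.22 on the wild type arrays and 7.92, 7.88 and 7.92 on the mutant arrays. *bsf*, the fly relative of the RNA-binding protein LRPPRC, stood at 9.53, 9.59 and 9.50 on the wild type arrays and 9.83, 9.89 and 9.87 on the mutant arrays. Neither gene overlapped between genotypes. Of the list, 2 further genes, *SerRS-m* and *mTerf5*, were lower without overlap, at log2 fold changes of -0.12 and -0.14, and the shares over all probe sets were 7.97% higher and 8.07% lower. *IleRS-m* was 0.50 log2 units higher (standard error 0.092, adjusted p = 0.0668, limma) and *bsf* 0.32 (standard error 0.06, adjusted p = 0.0694, limma), short of the threshold. These and the next genes are named with their values already known. The elongation factors *mEFTu1* and *mEFTs* were at 0.14 and 0.13, the mitochondrial DNA packaging factor *TFAM* at -0.01 and the RNA polymerase *PolrMT* at -0.12.

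Nuclear genes of oxidative phosphorylation, 73 in a list that includes paralogs near background, had a median log2 fold change of 0.007. Only *ATPsynepsilonL* passed the threshold, at 2.95, and at an unadjusted p under 0.05 in limma 2 were higher, it included, and 1 was lower. The 34 cytoplasmic ribosomal protein genes read had a median of -0.008 and none passed, while 1 had an unadjusted p under 0.05 in limma. Both lists are to be read against the 11.8% of all probe sets at that level. The oxidative phosphorylation genes were also often low on mutant replicate 3 and wild type replicate 2. Of the 73 genes 60.3% were lowest on mutant replicate 3, 65.8% highest on mutant replicate 1 and 47.9% lowest on wild type replicate 2. Their median deviations were 0.057, -0.043 and -0.007 on the wild type arrays and 0.063, 0.007 and -0.047 on the mutant arrays, against 0.117, -0.117 and 0.037 and 0.103, 0.017 and -0.123 for the 69 genes. The translation factors deviated by 0.113, -0.017 and -0.103 in wild type and by at most 0.03 on the mutant arrays, so they did not share the low value of wild type replicate 2. The cytoplasmic ribosomal proteins deviated by at most 0.008 on any array, but their median signal of 13.88 lay near the top of the scale (the brightest probe set averaged 14.18), so their deviations are not comparable with those of the members. These differences between lists were not tested.

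**Figure D5:**
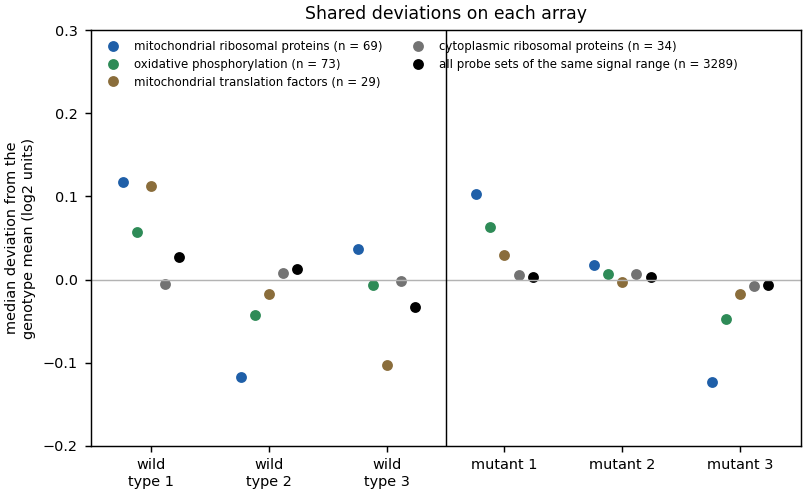
Median deviation from the genotype mean (y axis, log2 units) of 4 gene lists and of all probe sets in the same signal range, on each of the 6 arrays. The mitochondrial ribosomal proteins range from -0.123 on mutant replicate 3 to 0.117 on wild type replicate 1.

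Markers of tissues other than the disc also varied, and their part in the values above was not tested. On a log2 scale of summed signal, the 69 genes stood at 15.80 to 16.03 on the wild type arrays and 15.84 to 16.05 on the mutant arrays, and the 7 eye disc markers at 13.50 to 14.05 and 13.94 to 14.08. The summed eye disc markers were 13.71, 14.05 and 13.50 on the wild type arrays, highest on replicate 2, where the 69 genes were lowest. They were 13.94, 13.99 and 14.08 on the mutant arrays, highest on replicate 3. Singly, 6 of the 7 were highest on wild type replicate 2. On mutant replicate 3 the markers disagreed, with 3 highest and 2 lowest there, ties left out. All 5 salivary glue genes read were highest on wild type replicate 3 and mutant replicate 1 (12.30 to 15.38 on the wild type arrays, 12.39 to 15.88 on the mutant arrays, summed), and all 3 fat body genes (of 5 listed) were highest on the replicates 1 and lowest on the replicates 3 (8.45 to 11.83 and 7.76 to 11.36). The summed signal of 5 muscle genes (of 8 listed) was 13.90 to 14.09 on the wild type arrays and 13.25 to 13.74 on the mutant arrays, that of 6 hemocyte genes 10.41 to 11.12 and 11.50 to 11.83, and that of 3 glial genes (of 4 listed) 11.07 to 11.32 and 11.34 to 11.46. The muscle, hemocyte and glial sums thus separated the genotypes, the glial sums by a narrow gap. The sum of the mitochondrial ribosomal proteins did not. Gene by gene, 4 of 5 muscle genes were lower and 4 of 6 hemocyte genes higher in the mutant without overlap. All 3 glial genes overlapped. Over all probe sets 7.97% were higher and 8.07% lower without overlap. No marker was at the level of the control probe sets. The lowest, *NimC1* of hemocytes at 5.0 on wild type replicate 2, lay below the median of 5.28 on that array. *NimC1* was also the only marker past the threshold (log2 fold change 1.64, adjusted p = 0.0369, limma), which 1.6% of all probe sets passed.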

How the data were processed

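The authors deposited log2 expression values with 2 decimals for 18952 probe sets, made from Affymetrix scans with the rma algorithm of affy 1.28.1 under R 2.12.1, which corrects the background, brings the arrays to a common distribution and summarizes the probes of a probe set. No filter on probe sets is stated. After 183 control probe sets were left out, a linear model of genotype without covariates was fitted to the other 18769 on all 6 arrays with lmFit and eBayes (limma 3.58.1, R 4.3.3, default settings), and the Benjamini-Hochberg adjustment covered all of them. No array was a copy of another, with at most 845 equal values in a pair. Genotypes were taken from the sample records. A platform annotation gave 1 gene for 13647 probe sets, several for 402 (not named) and none for 4720. The study used another genome release, so chromosome arms are given without coordinates.

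Named genes are the 5 largest changes in each direction, the 5 brightest and 3 dimmest members and a list chosen for role. *mRpS27* of that list has no probe set named here. The members, lists and rules were chosen with earlier results of these data known. As alternatives, the arrays were quantile normalized or centred on their medians, weighted by their spread, or left out in turn. Others were robust eBayes with a trend on intensity, the removal of dim probe sets, a block for the replicate number, the mean or the most changed probe set of a gene, and other thresholds. The median of the 69 genes on each array as a covariate, and the shares over probe sets of the same signal range, were chosen after seeing the data.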

Additional observations from a re-analysis of the deposited data

How the results depend on the processing

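None of the 69 genes reached an adjusted p of 0.05 or less (limma) under any of the 16 alternatives, and none reached 0.1 in the fit as reported. The smallest adjusted p was 0.0778 for *mRpL18*, with the median of the 69 genes on each array as a covariate, an alternative chosen after seeing the data. With an unadjusted p under 0.05 as the threshold 5 genes passed. Array weights raised these to 8, and with 1 array left out they were 3 (without wild type replicate 2 or mutant replicate 1) to 11 (without wild type replicate 3). Genes without overlap between genotypes numbered 6 to 15 with 1 array left out, a count that grows by construction with fewer arrays (12 without wild type replicate 2, 14 without wild type replicate 3, 15 without mutant replicate 3). For counts by unadjusted p and by overlap, shares over all probe sets under the alternatives are not given here. These counts thus have no background of their own and are not a result about the members. The median log2 fold change was -0.023 to 0.10 with 1 array left out, and otherwise stayed between 0.018 and 0.084. Over all probe sets, the calls went from 300 to 477 with array weights, to 159 with a minimum fold of 1.2, and to 127 (without mutant replicate 2) to 412 (without wild type replicate 3) with 1 array left out. Of 27 named genes, 10 changed sign somewhere, none of them past the threshold in any alternative. Median subtraction turned *mRpL1* to 0.02, and array weights turned *mRpL3* to 0.035 and *mRpS18A* to 0.037. With 1 array left out the log2 fold change ranged from -0.16 to 0.125 for *mRpL1*, from -0.097 to 0.033 for *mRpL3*, from -0.26 to 0.02 for *mRpL10*, from -0.068 to 0.10 for *mRpL11*, from -0.107 to 0.233 for *mRpL21*, from -0.017 to 0.193 for *mRpL45*, from -0.022 to 0.153 for *mRpS2*, from -0.125 to 0.05 for *mRpS18A*, from -0.012 to 0.167 for *mRpS24* and from -0.02 to 0.112 for *mRpS30*. Genes that kept their sign also moved, from 0.068 to 0.313 for *mRpL52*, from 0.01 to 0.20 for *mRpS23*, from 0.043 to 0.167 for *mRpS16*, from 0.028 to 0.173 for *mRpL33* and from 0.005 to 0.125 for *mRpL47*, each lowest without wild type replicate 2. The cause was not tested. The labels number the replicates in both genotypes but do not say whether the numbers pair them. Same-numbered arrays had correlations of their deviations from the genotype mean of 0.193, -0.23 and 0.286. Not every array correlated best with its own number. Deviations from a mean of 3 arrays are tied to each other, so these correlations cannot decide whether the arrays were paired. With the replicate block, 0 of the 69 genes and 300 probe sets passed, the median log2 fold change stayed at 0.03 and 6 genes had an unadjusted p under 0.05.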
